A study of Mus musculus with 9 samples.

Results

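Elavl1, Elavl2, Elavl3 and Elavl4 encode the Hu proteins, and the tags of their own mRNAs are described here in 7 FMRP libraries and 2 Hu libraries from mouse brain polyribosomes. The genes were chosen by symbol in the authors' gene table, where they are 4 of 29261 genes. All 4 had at least 1 tag on a transcript record, as did 11618 genes in the 9 libraries together.

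Hu proteins are RNA-binding proteins with RNA recognition motifs that bind U-rich and AU-rich stretches, mostly in 3′ untranslated regions, where they are known to stabilise mRNAs and promote their translation. HuR, the product of Elavl1, is present in most cell types, whereas HuB (Elavl2), HuC (Elavl3) and HuD (Elavl4) are largely neuronal. Hu proteins are known to bind mRNAs of their own family, a form of autoregulation and cross-regulation. FMRP, the protein lost in fragile X syndrome, represses translation and is known to bind mainly coding sequence in brain polyribosomes.

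In HITS-CLIP, ultraviolet light links a protein to the RNA it touches, the protein is immunoprecipitated, and the attached RNA fragments are sequenced as tags. Polyribosomes were prepared from the cortex and cerebellum of FVB mice, pooled over littermates per the series text, at postnatal day 11, 13, 14, 15 or 25 (P11 to P25). FMRP was precipitated with mixed monoclonal antibodies (7G1-1 and 2F5) at P14, P15 and P25 and with the polyclonal antibody ab17722 at P14 and P25, after dissociation in 1% SDS, and these 5 libraries were sequenced on the 454 platform. The P11 and P13 lysates, dissociated in 2% SDS, were each divided between ab17722 and a human anti-Hu antiserum, and the resulting 4 libraries were sequenced on Illumina. The sources used here do not say which of the Hu proteins the antiserum precipitates. On Illumina each age is 1 lysate, so the spread between the 2 libraries of a group holds both age and preparation. The p-values rest on counting error and on that spread, estimated in part from all genes tested, and on no other replication. The sample labels do not say whether the monoclonal and polyclonal libraries of P14, or those of P25, share a pool of mice. No input RNA library was analysed, so the number of tags on an mRNA joins its abundance and its binding, and these cannot be told apart. Nothing here measures Elavl mRNA or protein after a change in Hu activity.

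Depth ran from 4397 to 7713 transcript tags in the 454 libraries and from 25873 to 49847 in the Illumina libraries, and from 7439 to 98832 genomic tags over all 9. A count of 0 therefore allows up to 3 tags, which is 389 to 682 CPM (tags per 1000000 tags of the library) in a 454 library and 60.2 to 116 CPM in an Illumina library. Intervals and floors cover counting error only. Summed transcript CPM of 5 neuronal markers, all with tags, was 1331 to 4267 in the 7 FMRP libraries and 6029 to 9950 in the 2 Hu libraries. That of 4 oligodendrocyte markers was 112 to 2201 and 4831 to 11074, and that of 5 astrocyte markers 178 to 1642 and 77.3 to 120. Of 3 microglial markers 1 had a tag, as did 1 of 2 endothelial markers. Microglial CPM was 0 to 227 with FMRP (37.3 and 45.4 on Illumina) and 0 to 38.7 with Hu. Endothelial CPM was 0 to 459 with FMRP (0 in both libraries on Illumina) and 0 with Hu. Neuronal and oligodendrocyte tags thus moved with the Hu group, and their part in the Elavl results was not tested.

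Elavl1, the gene of HuR, had the most Hu tags of the 4. Its transcript record held 36 Hu tags at P11 and 66 at P13, or 1391 and 1324 CPM (mean 1358 ± 47.6, SD, n = 2). FMRP gave 0 tags at P11, 7 at P13 and 0 in each of the 5 libraries on 454. Both Hu libraries lay above all 7 FMRP libraries, and Elavl1 ranked 72 of the 7260 genes with a Hu tag by the sum of both. At P11 the Hu level was 11.7-fold the floor of 3 FMRP tags in that library, and the lower limit of the exact counting interval was 9.07-fold. At P13 it was 6.49-fold higher (95% counting interval 2.98 to 16.8). Folds on transcript tags carry TMM scaling of the libraries, which the CPM values do not, and with library totals alone the P13 fold was 8.34. Genomic tags with library totals gave 7.62-fold the floor at P11 (lower limit 5.84) and 6.31-fold at P13 (2.89 to 16.3).

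Elavl4, the gene of HuD, held 25 Hu tags at P11 and 29 at P13 on its transcript record (966 and 582 CPM, mean 774 ± 272, SD, n = 2) and ranked 226 among genes with a Hu tag. FMRP gave 6 tags at P11 and 3 at P13 on Illumina (224 and 68.1 CPM), 1 in the P15 monoclonal library, 1 in the P25 polyclonal library, and 0 in the other 454 libraries. The Hu libraries lay above both FMRP libraries on Illumina, but a 0 on 454 allows up to 389 to 682 CPM, so the P13 Hu level of 582 was not above the limit of every 454 library. Within each lysate the Hu level was 4.08-fold higher at P11 (95% counting interval 1.63 to 12.2) and 6.65-fold higher at P13 (2.06 to 34.1, from 3 FMRP tags). Genomic tags, 10 and 27 with Hu against 4 and 4 with FMRP, gave 1.84-fold at P11 (0.532 to 8.05) and 4.66-fold at P13 (1.62 to 18.3) with library totals, so at P11 no difference was detectable on that list.

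Elavl2, the gene of HuB, had fewer tags with both proteins. Its transcript record held 11 Hu tags at P11 and 11 at P13 (425 and 221 CPM, mean 323 ± 145, SD, n = 2), 0 FMRP tags at P11, 2 at P13 (45.4 CPM) and 0 in all 5 libraries on 454. The summed Hu level on Illumina was 8.69-fold higher than the FMRP level, from 22 against 2 tags. Its 95% counting interval was 2.14 to 76.3. At P11 the Hu level was 3.59-fold the floor of 3 FMRP tags, with a lower counting limit of 2.46. At P13 it was 3.79-fold higher (0.826 to 35.2), so no difference was detectable in that lysate with TMM scaling. With library totals the P13 fold was 4.86 (1.06 to 45.2), so the reading at P13 depended on the scaling. Genomic tags with library totals gave 3.93-fold the floor at P11 (lower limit 2.84) and 3.45-fold at P13 (0.976 to 18.6).

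Elavl3, the gene of HuC, was the member with FMRP tags on its transcript record in every FMRP library. The genomic list and the authors' counts held 0 in the P25 polyclonal library, and the authors' counts also 0 at P11. The P11 tag on the record, at nt 1552 to 1598, was not found on the genomic list, whose P11 tag was a different one. On its transcript record FMRP gave 2 tags at P14 and 3 at P15 with the monoclonal antibodies, 2 at P14 with the polyclonal antibody, 1 in each P25 library, and 1 each at P11 and P13 on Illumina. Over the 5 libraries on 454 that made 9 tags of 31030, against 2 for Elavl4 and 0 for both Elavl1 and Elavl2, where 0 allows up to 96.7 CPM. Hu gave 5 tags at P11 and 2 at P13, or 193 and 40.1 CPM, which overlapped the range of 22.7 to 455 CPM over the FMRP libraries. On this record the Hu to FMRP ratio on Illumina was 2.77 with an interval of 0.527 to 27.3, so no difference was detectable at this depth.

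**Figure D1:**
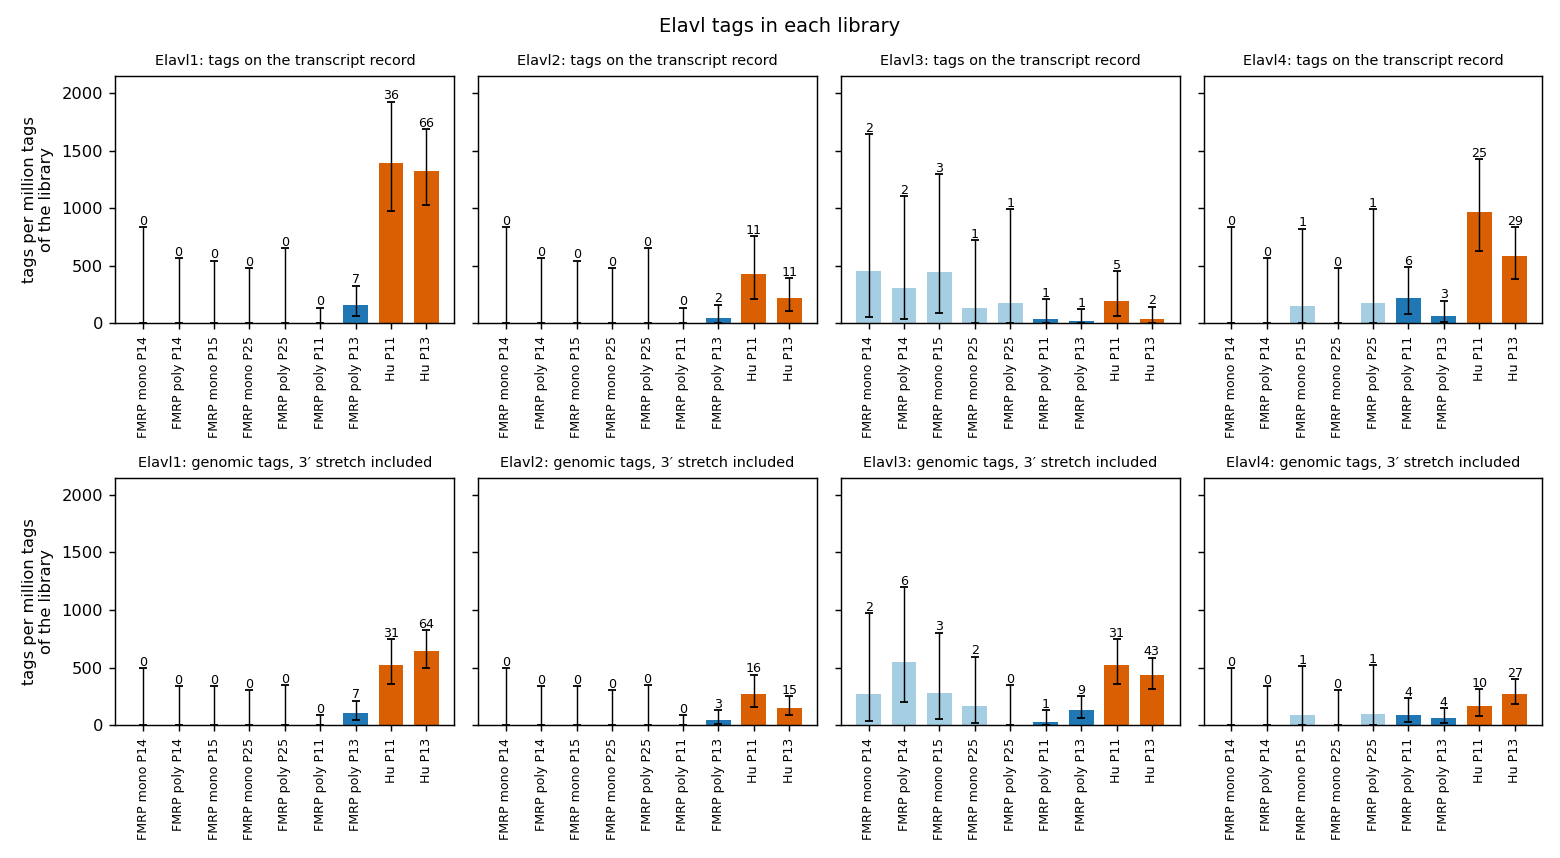
CPM (vertical axis) for each Elavl gene (columns) in the 9 libraries, from transcript records (top) and from the genomic lists with the stretch past the listed 3′ end (bottom). Bars are single libraries, lines are exact 95% counting intervals and numbers are tag counts; the Hu libraries hold 36 and 66 tags of Elavl1, and the Hu count of Elavl3 goes from 5 and 2 on the record to 31 and 43 on the genome.

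Most Hu tags counted here with Elavl3 lay outside the gene as listed. The authors' table places Elavl3 at chr9:21822231-21856454 (mm9, minus strand), and 26 Hu tags at P11 and 40 at P13 lay on the same strand past that 3′ end, between 920 and 2496 nt beyond it (chr9:21819714-21821331). Inside the bounds there were 5 and 3 Hu tags. The 66 Hu tags past the end were on the genomic list only. Whether they belong to an Elavl3 transcript was not tested. The stretch thus took 83.9% of the sense Hu tags at P11 (exact 95% interval 66.3 to 94.5) and 93.0% at P13 (80.9 to 98.5). The next gene in the table, Prkcsh, ends 3565 nt beyond the listed end of Elavl3 and lies on the plus strand. For the other members the same search, up to 3000 nt past the listed end, found 1 Hu tag for Elavl2 and 0 for Elavl1 and Elavl4. Among 1139 genes with at least 20 Hu genomic tags, 136 (11.9%) had most of them past the listed end, and Elavl3 ranked 28 by that share, at 89.2%.

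FMRP tags occupied the same stretch in some libraries. FMRP gave 7 tags there at P13 on Illumina, 2 in the P14 polyclonal library and 0 in the other 5. Of these 9 tags, 8 overlapped a Hu tag. How many would overlap by position alone was not computed, here or for the other members. The densest Hu cluster, at chr9:21820368-21820446, held 10 Hu tags from P11 and 9 from P13 together with 4 FMRP tags. In the authors' counts, Elavl3 had 8 FMRP tags at P13, 0 of them in coding sequence, whereas 7 of its 10 tags on 454 were coding. That count of 8 exceeds the 2 sense tags inside the bounds at P13 and equals the 7 tags of the stretch plus 1 tag at nt 303 to 373 of the record. With the stretch included, Elavl3 had 31 and 43 Hu tags (524 and 435 CPM of genomic tags) against 1 and 9 FMRP tags on Illumina (22.9 and 132 CPM), and the Hu libraries lay above both. The 454 libraries then held 0 to 6 tags, or 0 to 549 CPM, and overlapped the Hu range.

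**Figure D2:**
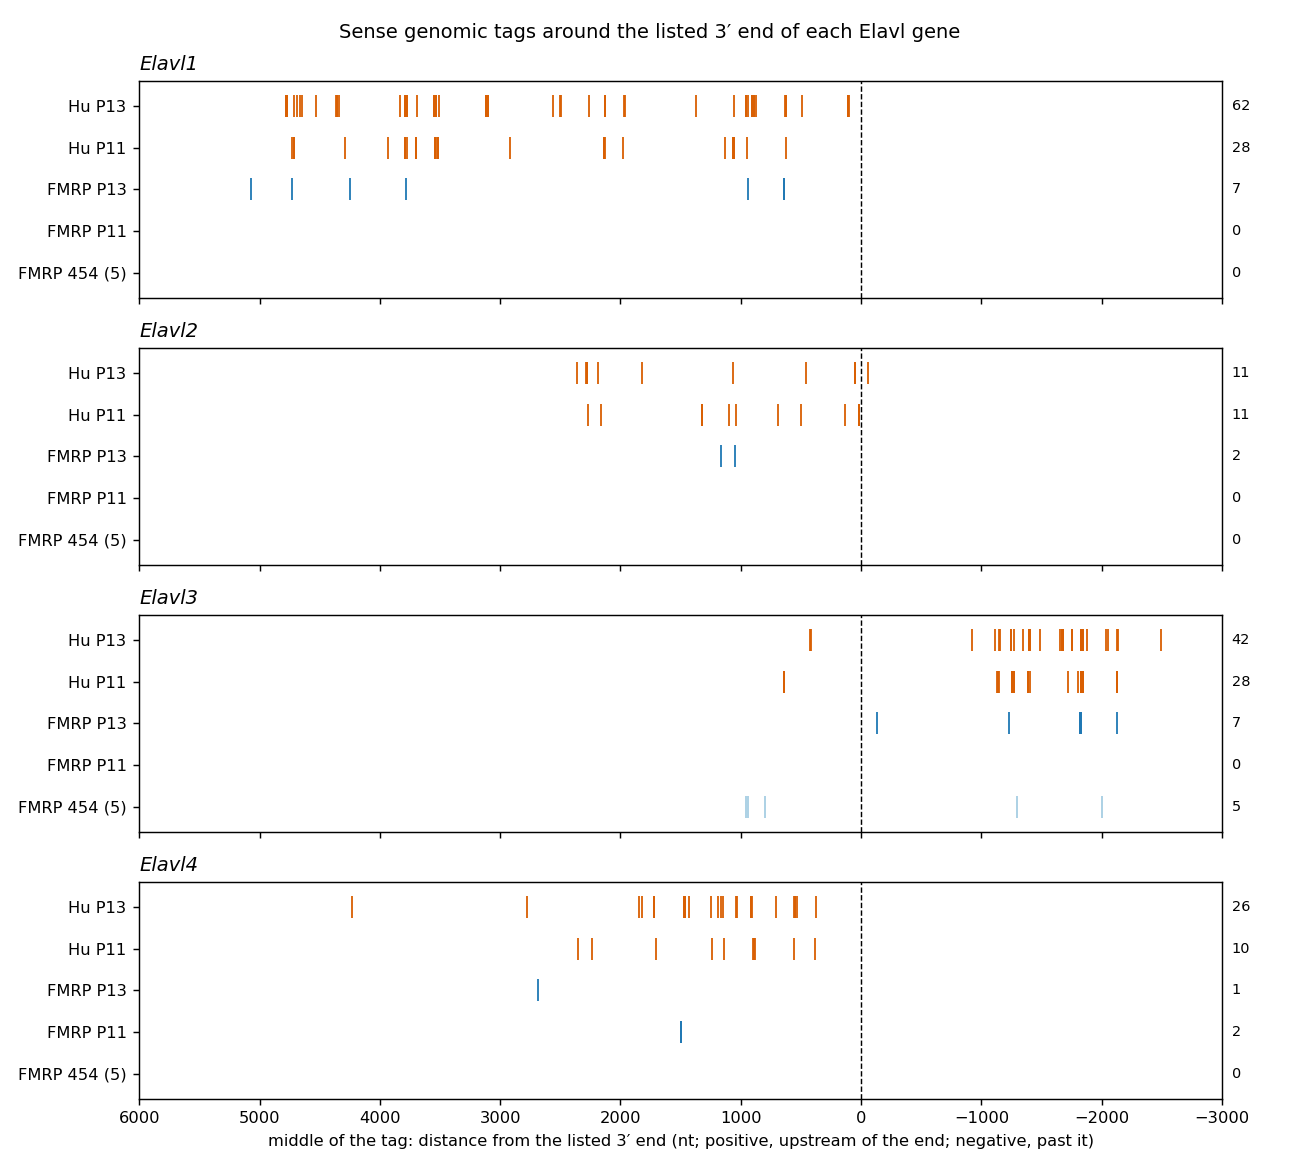
Position of each sense genomic tag relative to the listed 3′ end of its gene (horizontal axis, nt, positive upstream and negative past the end; tags more than 6000 nt upstream are not drawn) by library (rows; the 5 libraries on 454 share a row), with the number of tags drawn at the right. Tags of Elavl1, Elavl2 and Elavl4 lie upstream of the dashed line apart from 1 Hu tag of Elavl2. For Elavl3, 26 and 40 Hu tags counted with the gene lie past the line.

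For the other members most Hu transcript tags started past the latest possible end of coding sequence, 85 of 102 on Elavl1, 34 of 54 on Elavl4 and 15 of 22 on Elavl2, but 11 of 25 on Elavl4 at P11 alone. On Elavl1 (chr8:4284781-4325100, mm9, minus strand) the 102 Hu transcript tags began at nt 1220 and ended at nt 5946, and the tags found on both lists from nt 949 to nt 5946 fell in 1 uninterrupted genomic block. The coding length of 981 nt, taken with the single FMRP tag at P13 that the authors counted as coding, assumed to be the one nearest the 5′ end, puts the end of coding sequence at nt 1956 or before. Of the Hu tags, 33 of 36 at P11 and 52 of 66 at P13 started past that position. On the genome the sense Hu tags formed 26 clusters of overlapping tags, of which 12 were single tags, and the largest, chr8:4289411-4289592, held 3 tags from P11 and 10 from P13. Of the P11 Hu tags 77.4% overlapped a P13 tag, and 46.9% of the P13 tags overlapped a P11 tag. The 7 FMRP tags at P13 spanned nt 949 to 5422, and of the 7 on the genomic list 6 overlapped a Hu tag.

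On Elavl4 (chr4:109876341-109959439, mm9, minus strand) the authors counted all 3 P13 FMRP tags as coding, which with the coding length of 1185 nt puts the end of coding sequence at nt 1799 or before. Of the Hu transcript tags, 11 of 25 at P11 and 23 of 29 at P13 started past it. A dense pile at nt 1694 to 1768 held 14 tags at P11, 5 at P13 and 2 FMRP tags at P11. Of its 19 Hu tags, 1 was placed inside the gene on the genomic list, 4 were placed on 4 other chromosomes and 14 were not found there. Outside the pile, Hu had 11 and 24 tags and FMRP 4 and 3. Of the FMRP transcript tags 2 of 11, and of the Hu tags 34 of 54, started past nt 1799, and 2 of the 10 FMRP tags on the genomic list overlapped a Hu tag. A similar but smaller pile was at nt 1566 to 1613 of Elavl3, with all 5 of its P11 Hu transcript tags, none of them placed inside the gene. The P11 FMRP transcript tag of Elavl3, at nt 1552 to 1598, overlapped that pile.

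On Elavl2 (chr4:90917456-91066675, mm9, minus strand) the 22 Hu transcript tags ran from nt 1458 to 3837, with 15 starting past nt 1727, where coding sequence must have ended under the same assumption as for Elavl1. The genomic list added 10 sense Hu tags inside the bounds, and 9 of its 31 Hu tags lay more than 6000 nt upstream of the listed end. No cluster held more than 4 Hu tags. The 3 FMRP tags, all from P13, included 1 that overlapped a Hu tag. The 4 genes are paralogs with similar coding sequences, and the sources used here do not say how tags matching more than 1 of them were treated.

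Levels of the members were compared per kb, from genomic tags with the 3′ stretch, under 2 lengths. The counts took sense tags anywhere inside the gene bounds, whereas both lengths are of transcripts. Of the Hu tags, 9 of 31 on Elavl2, 5 of 95 on Elavl1 and 4 of 74 on Elavl3 lay more than 6000 nt upstream of the listed end. On Elavl4 it was 4 of 40, of which 3 lay before its 5′ end and were not counted here. Values per kb may therefore be raised unevenly between the members. With the transcript length in the authors' deposited table, Hu gave 97.2 ± 14.4 CPM per kb on Elavl1, 71.6 ± 9.42 on Elavl3, 47.7 ± 15.9 on Elavl4 and 32.4 ± 12.9 on Elavl2 (SD, n = 2 each). The library values of Elavl1, from 87.0 to 107, did not overlap those of Elavl3, from 64.9 to 78.3, and those of Elavl3 lay above Elavl4, from 36.5 to 58.9, while Elavl4 and Elavl2, from 23.3 to 41.5, overlapped. FMRP on 454 gave 37.5 ± 29.9 CPM per kb on Elavl3 and 7.98 ± 10.9 on Elavl4 (SD, n = 5), and 0 on Elavl1 and Elavl2. Over these 5 libraries a 0 allows up to 3 tags, or 57.5 CPM of genomic tags before division by length. Elavl4 held 2 tags there, so it could not be told apart from the members at 0. With the length of each record up to the listed 3′ end plus the reach of the Hu tags past it, an alternative added after seeing the data, the Hu values were 97.2 ± 14.4 on Elavl1, 101 ± 13.3 on Elavl3, 53.9 ± 17.9 on Elavl4 and 53.9 ± 21.5 on Elavl2 (SD, n = 2 each). The order of Elavl1 and Elavl3 therefore depended on the length used, and Elavl4 and Elavl2 overlapped under both.

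**Figure D3:**
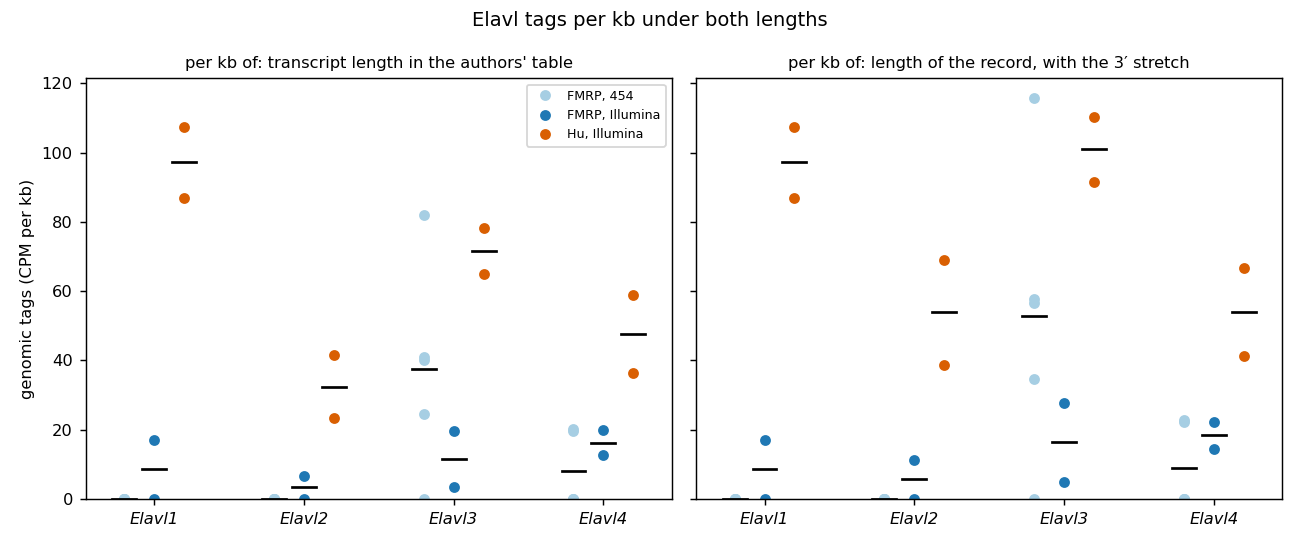
Genomic CPM per kb (vertical axis) for each Elavl gene, with 1 point a library and a line at the mean of the 5 FMRP libraries on 454, the 2 FMRP libraries on Illumina and the 2 Hu libraries, with the authors' listed length (left) and the record length plus the 3′ stretch (right). The Hu mean of Elavl3 is 71.6 on the left and 101 on the right, while that of Elavl1 is 97.2 in both.

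FMRP and Hu were compared in the 4 Illumina libraries with edgeR's quasi-likelihood test across all genes. Of 1015 genes tested on transcript tags 618 passed an adjusted p of 0.05 (60.9%), 277 of them lower with FMRP (27.3%) and 341 higher (33.6%). The DESeq2 test on the same genes called 128 lower and 334 higher. Of the 4 members 2 passed the filter on low counts, Elavl1 and Elavl4, and both were lower with FMRP, beside that background of 27.3%. The filter asked for about 282 CPM in at least 2 libraries, which both members reached in the 2 Hu libraries and in 0 FMRP libraries. Both members thus entered the test through their Hu level alone, and their number is a description. Elavl1 fell by 3.51 on the log2 scale (SE 0.94, adjusted p = 0.0120), and 56 of the 1015 genes (5.52%) had a lower log2 ratio. Elavl4 fell by 2.22 (SE 0.78, adjusted p = 0.0332). With no filter Elavl1 still passed (log2 -3.63, edgeR adjusted p = 0.0118) and Elavl4 did not (log2 -2.40, adjusted p = 0.130). Leaving out the FMRP library of P11 ended the call for Elavl1 (adjusted p = 0.0657), and leaving out any one of the 4 libraries ended it for Elavl4 (adjusted p from 0.0671 to 0.368). Elavl2 and Elavl3 had too few transcript tags for the test, at a log2 ratio of summed counts of -3.12 and -1.47. With no filter neither passed, Elavl2 at -3.20 (edgeR adjusted p = 0.131) and Elavl3 at -1.64 (adjusted p = 0.628).

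With genomic tags and the 3′ stretch, a choice made after seeing the Elavl3 tags, 594 of 1084 genes passed (54.8%), 298 of them lower with FMRP (27.5%). Elavl3 passed with a log2 ratio of -2.73 (SE 0.75, edgeR adjusted p = 0.00297), beside -3.51 for Elavl1 (SE 0.78, adjusted p = 0.000456) and -1.84 for Elavl4 (SE 0.69, adjusted p = 0.0232). All 3 again passed the filter through the Hu libraries alone, and with no filter Elavl3 (log2 -2.47, edgeR adjusted p = 0.0257) and Elavl1 (-3.27, adjusted p = 0.00182) passed while Elavl4 did not (-1.59, adjusted p = 0.344). For Elavl3, 61 of the 1084 genes (5.63%) had a lower ratio. The Elavl3 result rests on counting the tags of the stretch with the gene, and that assignment was not tested. Without the FMRP library of P11, which held 1 of its tags, Elavl3 missed the threshold (log2 -1.78, adjusted p = 0.0799). With the lysate as a block Elavl4 did not pass (log2 -1.83, adjusted p = 0.0571), while Elavl1 and Elavl3 did. Elavl2 stayed below the filter, at 31 Hu and 3 FMRP tags, and with no filter it did not pass (log2 -2.90, edgeR adjusted p = 0.0626).

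**Figure D4:**
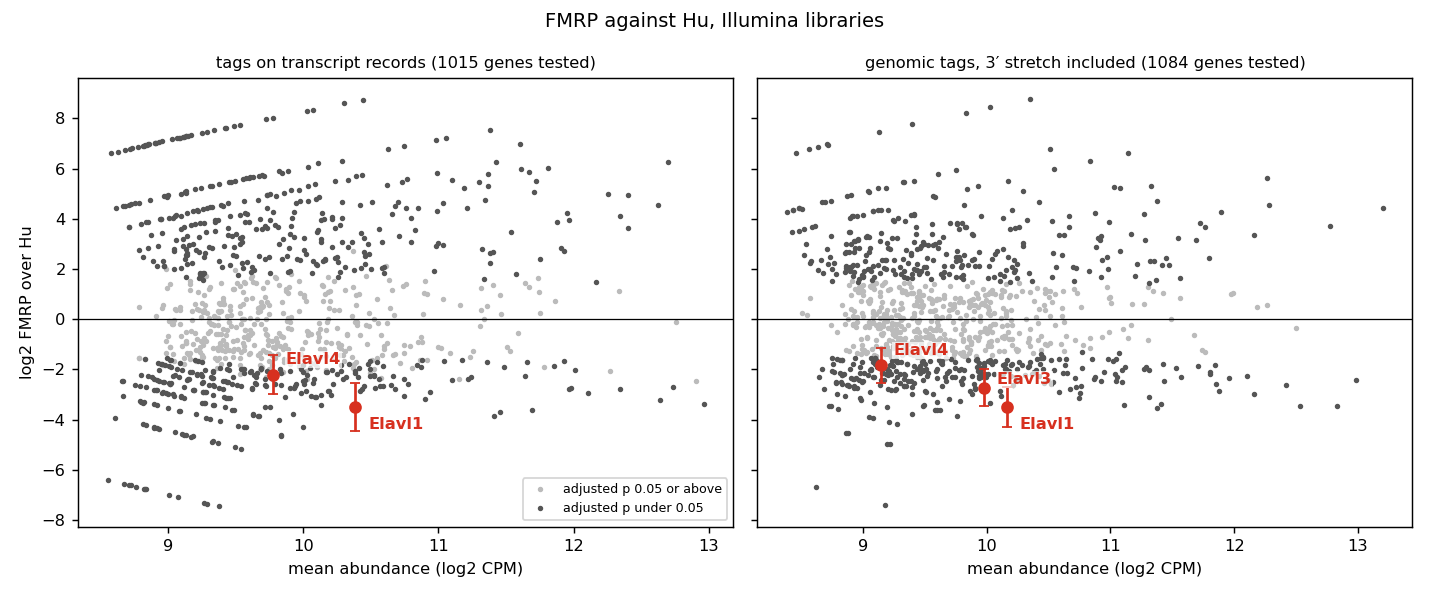
Log2 ratio of FMRP over Hu (vertical axis) against mean abundance (log2 CPM) for every gene tested in the 4 Illumina libraries, from transcript tags (left, 1015 genes) and from genomic tags with the 3′ stretch (right, 1084 genes). Dark points have an adjusted p under 0.05, red points with SE bars are the Elavl genes that passed the filter, and all of them lie below 0.

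In the authors' deposited table the p-value for FMRP binding was 0.00206 for Elavl3, 0.141 for Elavl4, 0.969 for Elavl1 and 0.993 for Elavl2. The same authors' deposited table counts FMRP tags of Elavl3 in 5 libraries, of Elavl4 in 4 and of Elavl1 and Elavl2 in 1 each. For Elavl3 alone among the 4 it also quotes ratios from another study's FMRP immunoprecipitates, 5.2 for wild type over Fmr1 knockout and 7.5 for wild type over input.

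The tested genes with the pattern nearest to Elavl1 over the 4 Illumina libraries (Euclidean distance of centred log2 CPM) were Sod2, the mitochondrial superoxide dismutase, at 0.226, the dynein light chain gene Dynll2 at 0.311 and the profilin gene Pfn2 at 0.404. Sod2 had 0 and 6 FMRP tags against 29 and 55 Hu tags. Those nearest to Elavl4 were Khsrp, whose product binds AU-rich elements, at 0.305, an unnamed transcript record (XM_001480880.1) at 0.323 and the forkhead gene Foxn3 at 0.342. Khsrp had 5 and 3 FMRP tags against 23 and 21 Hu tags.

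Other mRNAs of AU-rich element binding and neuronal RNA-binding proteins were compared on transcript tags. Of 22 such genes 19 had a tag and 8 were tested, with 5 lower and 1 higher with FMRP and a median log2 ratio of -2.07, beside -0.16 over all 1015 tested genes, of which 27.3% were lower and 33.6% higher. Of the 8, Hnrnpd, Khsrp and Tial1 passed the filter through the Hu libraries alone and Pum2 through the FMRP libraries alone, so these counts are descriptions. The largest called differences were Pum2, a translational repressor gene, at 3.54 (SE 0.76), Qk, which encodes the quaking RNA-binding protein, at -2.92 (SE 0.82), and Tial1, a stress granule protein gene, at -2.65 (SE 0.74). Pum2 was the one called gene with more FMRP tags, 23 and 44 against 3 and 4 Hu tags. Of 20 mRNAs known as Hu targets 17 had a tag and 3 were tested, and all 3 were lower with FMRP, beside the same 27.3%, with Marcks and Nrn1 tested through the Hu libraries alone. They were Marcks at -3.86 (SE 0.74), Nrn1 at -3.85 (SE 0.95) and App at -1.91 (SE 0.74). Named after their values were seen, Mapt (log2 -0.38, edgeR adjusted p = 0.639) and Satb1 (0.85, adjusted p = 0.253) were tested on genomic tags inside the gene bounds and did not pass, and Ache, not tested, had 2 and 9 FMRP tags against 0 and 1 Hu tags.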

How the data were processed

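The data are lists of HITS-CLIP tags, 1 on transcript records and 1 on the genome for each of 9 libraries, and 1 gene table. The submitters' processing notes name Novoalign and mm9, with no version. In the gene table the authors deposited FMRP tag counts per gene for 7 libraries and a second set of counts in coding sequence, a linear exon array intensity, a log2 neuron expression value, a p-value, and ratios from another study; the intensity and the log2 value were not compared between genes. The track values and display scores of the deposited tag lists were not used. The sources used here do not say how duplicate tags were collapsed.

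Each listed tag was counted once. The 11622 transcript records with a tag were joined to 11618 genes by identifier. Of these genes 9841 were named through RefSeq identifiers and 1570 through the authors' table, and 207 kept the name of their record. Genomic tags were counted where their middle lay inside the authors' bounds on the gene's strand (16328 of 18241 genes with bounds had a strand). Positions are given in nt of the record or from the listed end, since the table's transcript length is not that of 1 record, and tag coordinates are 1-based. Counts were tested with edgeR 4.0.16 (quasi-likelihood test, TMM, filterByExpr, Benjamini-Hochberg over all genes tested) in R 4.3.3 and with DESeq2 1.42.0 as an alternative; the fit was tested on simulated data. Exact counting intervals are at 95%. The P11 and P13 lysates pair the libraries per the series text (correlation of the paired differences 0.16 over 1015 genes). The members, lists, nearest-gene rule (prior count 2) and examples (the 3 largest called differences and any in the opposite direction) were chosen with earlier results of these data known. The stretch of up to 3000 nt past the listed 3′ end, stopping at the next gene, was added after its tags were seen.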

Additional observations from a re-analysis of the deposited data

Results flagged for a closer look

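Genomic tags past the listed 3′ end of Elavl3 were outside the counts per gene bounds and per transcript record, and 66 Hu tags lay there in the 2 Hu libraries, against 9 tags in the 7 FMRP libraries. Before the listed 5′ end of Elavl4, within 1000 nt, lay 3 Hu tags (1 at P11 and 2 at P13, chr4:109959864-109959906) and 0 FMRP tags. No group held 4 libraries, so single libraries were not examined for standing apart.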

How the results depend on the processing

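Log2 ratios of Elavl1, Elavl2 and Elavl4 kept their sign under every alternative run, and that of Elavl3 on the transcript record turned to 0.22 when tags of all 7 FMRP libraries were summed, with no test. For Elavl1, 12 of 13 alternatives kept the call. Leaving out 1 library gave -8.38 to -2.27, where the lowest rests on an FMRP count of 0 and on the prior count. Elavl4 passed in 5 of 12. It was at -1.84 with DESeq2 size factors (adjusted p = 0.0678), -1.80 with the DESeq2 test (0.127) and -2.40 with no filter (0.130), and leaving out 1 library gave -2.62 to -1.06, so its call depends on the setting. Elavl3 on the transcript record was at -1.47 and with the 3′ stretch at -2.73, and with the stretch leaving out 1 library gave -4.17 to -1.78. The number of genes passing was 146 with the 454 libraries added and platform as a term, where 202 genes were tested, and 323 to 506 with 1 library left out (lowest without the P11 Hu library). With the 3′ stretch it was 292 to 473 (lowest without the P13 Hu library, 330 without the P11 FMRP library). Genes lower with FMRP numbered 77 to 204 with 1 library left out (77 of 1825 tested without the P11 FMRP library), 68 of 202 with the platform term, 155 of 10338 with no filter, 238 of 1015 with size factors and 366 with library totals, beside 277. The lysate as a replicate block gave 600 calls on transcript tags and changed no member's call there. Scaling by DESeq2 size factors moved the median log2 of all genes from -0.16 to 0.21, and library totals to -0.38.

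Hu tags summed over both libraries went from 54 to 37 for Elavl4 and from 7 to 74 for Elavl3 with genomic tags and the stretch. The densest 100 nt held 35.2% of the Elavl4 Hu transcript tags, but 56.0% at P11 alone and 17.2% at P13 alone, and for Elavl3 71.4%, but 100% in each library alone at different places. Without the P13 FMRP library no FMRP tag of Elavl2 was left for a ratio of counts, and the edgeR fit gave -6.27 (adjusted p = 0.232), or -6.85 with the 3′ stretch (adjusted p = 0.0305), both resting on the prior count. The size-factor, DESeq2 and block fits gave no value for Elavl2 and Elavl3 on transcript tags. Low FMRP counts limit all ratios, and age, pool and library cannot be told apart within a group. The causes of these differences were not tested.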
